A study of Sus scrofa with 8 samples.

Results

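Open chromatin of wild-type porcine muscle satellite cells was compared between 60 h, labelled as cell differentiation, and 0 h, labelled as cell proliferation. The comparison took the 4 WT libraries, 2 at each time, of the 8 libraries of the series, and all of their peaks on chromosomes 1 to 18 and X. Joining peaks that overlapped by at least 1 bp in any of the 4 libraries produced 153022 regions. Regions with a peak in both 60 h libraries and in no 0 h library are called opened here, and those with the reverse pattern closed.

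The series profiled these cells by ATAC-seq, in which a transposase cuts and tags accessible DNA, and its other 4 libraries carry the label CBP at the same times. The labels give WT as the genotype of both groups used here and name no allele or donor and do not say whether the libraries came from separate cultures, so the p-values below reflect library-to-library spread, part or all of which could be technical. One treatment note stands on every sample, WT included: SGC-CBP30, a ligand of the CBP and EP300 bromodomains, at 5 uM/ml for 48 h of proliferation and 60 h of differentiation. Which groups received it cannot be told from the labels, which also name a cell line C3H kept in RPMI beside the pig as organism and mention 3 groups of repeats where 2 libraries per group were analysed here.

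Satellite cells are the resident stem cells of skeletal muscle. They are marked by the transcription factor PAX7, divide as myoblasts under MYF5 and MYOD1, and leave the cell cycle to fuse into fibres under MYOG and the MEF2 factors while Notch signalling, which holds them undifferentiated, declines. Accessible DNA includes promoters, which tend to be open in many cell types, and distal enhancers, which change more between cell states.

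The 0 h libraries held more peaks, 127394 and 134181, than the 60 h libraries, 86282 and 82696. They were also deeper: relative to the shallowest library, at 1, the background level stood at 1.69 and 2.08 at 0 h and at 1.11 in the other 60 h library. A peak within 1 kb of a gene end was present at 8 to 10 of 10 satellite cell and myoblast markers in each library, among them PAX7, PAX3, MYF5, MYOD1, DES and CDH15 in all 4. Other cell types were marked at 4 or 5 of 8 endothelial genes, 4 or 5 of 8 immune genes, 3 of 6 matched neural genes, 4 of 6 fibroblast genes and 1 or 2 of 4 adipocyte genes. CDH5 and VWF of endothelium, LYZ and CSF1R of immune cells, SOX10 of Schwann cells, PDGFRA of fibroblasts and FABP4 of adipocytes had no such peak in any of the 4 libraries. Others had one in all 4: PECAM1, KDR, ERG and CLDN5 of endothelium, and CD14, CD68, SPI1 and CD3E of immune cells. So did MBP, NGFR and GFAP of neural cells, THY1, LUM and TCF21 of fibroblasts and PLIN1 of adipocytes. Of the satellite cell markers, ITGA7 had one only in WT 0 h library 1, and VCAM1 lacked one in WT 60 h library 1. In bulk samples, fewer cells with an open site and a less open site per cell cannot be told apart.

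With the peaks as deposited, 27918 regions closed (18.2% of all) and 1189 opened (0.777%), and 62361 were called in all 4 libraries. Scaling every peak to the depth of the shallowest library, an alternative added after seeing the data, left 25519 closed and 1356 opened. When each library was instead reduced to its 82696 strongest peaks by −log10 p, the number in the shallowest, 108978 regions remained, of which 7806 closed (7.16%) and 4910 opened (4.51%). Of the opened regions at equal numbers, 2544 (51.8%) had a deposited peak in both 0 h libraries that was not among the strongest 82696, while 7440 (95.3%) of the closed ones had no deposited peak in either 60 h library. These shares follow in part from the selection, which kept every peak of WT 60 h library 2 and dropped many at 0 h. With 2 libraries against 2, no exact test can go below a two-sided p of 0.333, so these counts stand without a test.

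**Figure D1:**
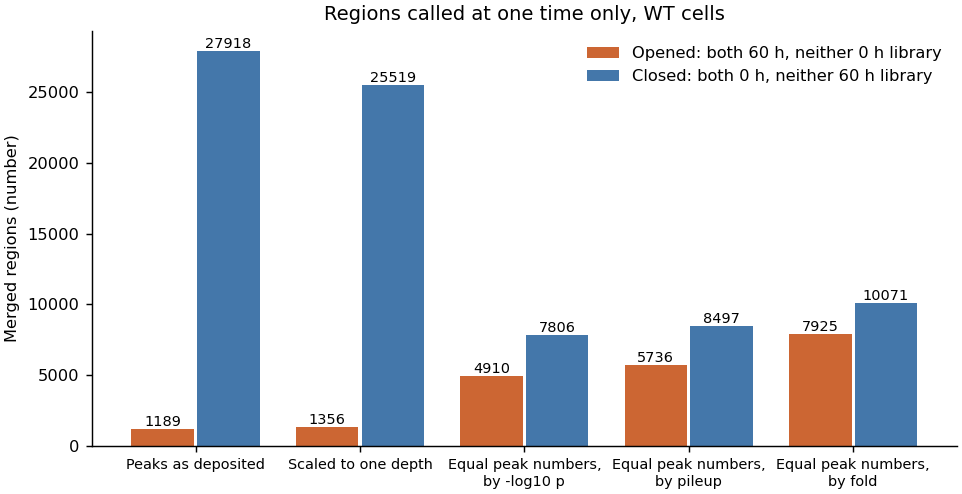
Number of merged regions (vertical axis) called only at 60 h (opened) or only at 0 h (closed) in WT cells, for 5 ways of taking the peaks. Closed regions outnumber opened ones in each, from 27918 against 1189 with the peaks as deposited to 10071 against 7925 with equal numbers ranked by fold.

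The 5 closed regions with the strongest peaks at equal numbers all lay inside genes, away from the gene ends. The strongest was in ERC2, a scaffold protein of the presynaptic active zone (chr13:38083818-38085165 of Sscrofa11.1), where the pileup, the recovered coverage at the peak summit, was 52 and 67 at 0 h and neither 60 h library had a peak. Next came a region in CADM1, an immunoglobulin-family adhesion molecule (chr9:42969639-42970351), with summit pileups of 52 and 64. The region in MAP2K2, a kinase that activates ERK (chr2:74639078-74640635), had the highest of the 5, 85 and 99. In all 5 strongest closed regions, the other 2 lying in NRDE2 and PCCA, both 0 h pileups were 52 or more and the 60 h libraries had no peak. These values chose the regions and carry no test.

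The strongest opened region lay between genes, 109156 bp from CXCL12, the chemokine that guides CXCR4-bearing cells (chr14:91653013-91653808). Its pileups were 37 and 34 at 60 h against 15 and 18 at 0 h. Another lay 221299 bp from ETS1, a transcription factor (chr9:55155114-55155965), with 45 and 42 at 60 h against 18 and 25 at 0 h. A region in CCDC148 had 46 and 42 at 60 h against 20 and 25, and one in PRICKLE2, a planar polarity protein, had 34 and 32 against 18 and 20. At these 4 regions the 2 shallower 60 h libraries were each higher than both 0 h libraries before any scaling. The fifth, at an end of LOC110259229, had 52 and 50 at 60 h, a peak of 33 in 1 of the 0 h libraries and none in the other.

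Genes were linked to regions by their nearest end within 50 kb. The genes with the most closed regions at equal numbers, net of opened ones, included a mitochondrial enzyme and an inhibitor of growth factor signalling. GPD2, the mitochondrial glycerol-3-phosphate dehydrogenase, lost 6 regions and gained none of 17. Its gene-end region was higher by −log10 p (0.74 ± 0.192, adjusted p = 0.0245, limma) but not by pileup (adjusted p = 0.299). Their pileups at 0 h ran from 21 to 69, the highest at chr15:63594875-63595575 just inside the gene with 69 and 68, and none of the 6 had a 60 h peak. SPRY1, which dampens growth factor receptor signalling and is linked to satellite cell quiescence, lost 5 of 12 and gained none. Those 5 had 0 h pileups between 20 and 46 and no 60 h peak. GALNT7 and ZNF608 each lost 7 and gained 1, and ARHGAP26 and PAG1 each lost 5. The background is high here, as 3093 of 16659 genes (18.6%) lost more regions than they gained and 1894 (11.4%) gained more. With the peaks as deposited these shares were 51.8% and 1.2%, and in the rank test below 1719 of 15472 genes had more higher than lower regions and 1473 (9.52%) the reverse. All 6 genes stayed on the closed side in the 8 alternatives run for them.

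Among the genes with the most net opened regions was COL1A1, which encodes the alpha-1 chain of type I collagen, with 5 opened and no closed region of 9. Of these, 2 regions, inside the gene at chr12:26389987-26390808 and 18265 bp from it at chr12:26415445-26415783, had no deposited peak at 0 h. Their 60 h pileups were 68 and 55 in the first and 44 and 37 in the second. At 2 others the 0 h libraries had peaks as well. Unscaled pileups were 57 and 67 at 0 h against 70 and 62 at 60 h at chr12:26383873-26384980. At chr12:26399264-26399541 they were 69 and 78 against 66 and 53. The relative depths were 1.69 and 2.08 at 0 h and 1.11 and 1 at 60 h. CMKLR1, EEA1 and GLRA1 each gained 4. FRMD8 and BAHCC1 gained 5 each by −log10 p but had net losses of 3 and 2 when peaks were ranked by pileup.

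Regions called in all 4 libraries were then compared by strength. In each library the 62361 regions were ranked by the −log10 p of their strongest peak, a percentile giving the share ranked below. The ranks were turned into normal scores, whose unit is 1 standard deviation of the library's regions. They were tested with limma and Benjamini-Hochberg adjustment over all regions. At an adjusted p under 0.05, 2854 regions (4.58%) were higher at 60 h and 3320 (5.32%) lower. The median higher region moved from percentiles 29.8 and 29.6 at 0 h to 69.3 and 70.4 at 60 h. The median lower region moved from 74.2 and 74.1 to 35.6 and 33.2. Because −log10 p also reads the local background, each call was checked with the ranks of the recovered pileup: 2090 of the higher (3.35% of all tested) and 2576 of the lower regions (4.13%) passed that test too, in the same direction. By fold over local background fewer passed, 791 (27.7%) of the higher and 1458 (43.9%) of the lower regions, and 563 and 1087 passed by all 3 rankings.

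**Figure D2:**
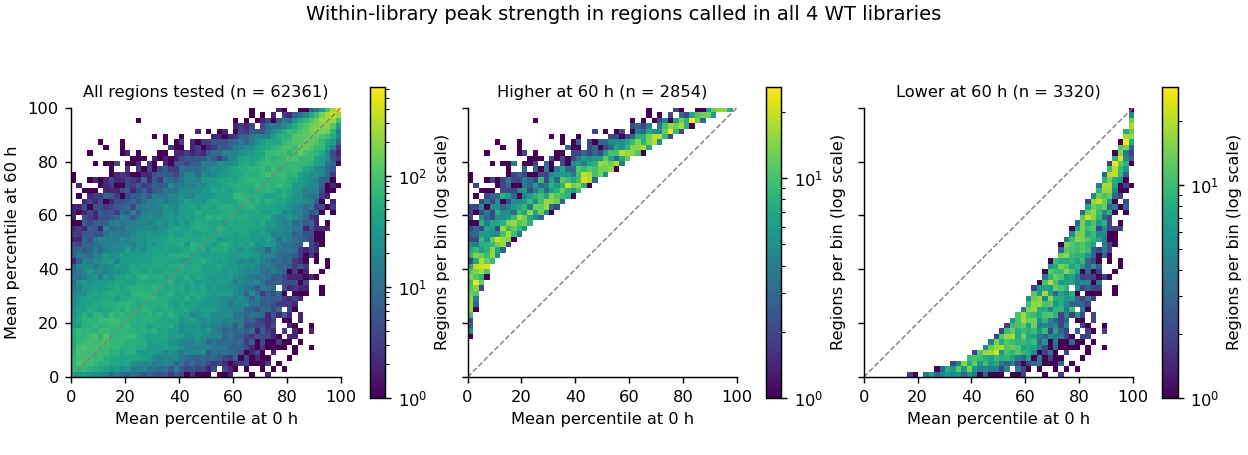
Mean percentile of peak strength at 60 h (vertical) against 0 h (horizontal) over the 2 libraries of each time, for the 62361 regions tested and the 2854 higher and 3320 lower ones. Colour gives the number of regions per bin on a log scale, and the dashed line marks equal percentiles.

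Scaled to depth, pileup in the higher regions had medians of 28.7 and 26.9 at 0 h and 42.9 and 42 at 60 h, and the median ratio of 60 h to 0 h was 1.51. In the lower regions the medians were 37.3 and 33.1 against 18.9 and 18, a ratio of 0.547. Over all tested regions the ratio was 0.960. Pileups of single regions are given in the text without scaling. Unscaled, the median over all tested regions was 53 and 60 at 0 h and 30 and 26 at 60 h. Before any scaling, 212 regions had both 60 h pileups above both 0 h pileups, and 208 of them were among the higher regions. Leaving out single libraries moved the counts from 1693 (without WT 0 h library 1) to 4701 (without WT 60 h library 1) higher regions, and from 1488 to 6351 lower ones for the same 2 libraries. A stricter set passed by both rankings and without each library in turn, with 682 higher (1.09%) and 562 lower regions (0.901%). Among the regions of the gene lists and of the genes named by rule, 57 belong to that stricter set, and 27 of them missed the threshold by fold. These include COL6A3, CEBPD, SOCS3, CCL2, CCL20, PAX3, HES1, RBPJ, TCF3, TMEM182, ACVR1, BMPR2, SMAD3, SMAD6, SMAD7, ATF3, IER3, EGR2, DUSP5 and NCOA2 and 1 region each of TIMP3, FASN and IL1R1. The fit without a library assumes that the lone sample varies like the pair of the other time.

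The regions with the largest gains of rank went from the bottom of the distribution to its middle. At XRCC6, which encodes the Ku70 subunit of DNA end joining (chr5:6906686-6907177), pileups were 14 and 16 at 0 h and 27 and 24 at 60 h. Its percentile rose from 0.0617 and 0.0184 to 53.1 and 47.2, a score change of 3.40 ± 0.497 (SE, adjusted p = 0.00195, limma). At COL8A1, a short-chain collagen (chr13:159233404-159234253), pileups of 14 and 14 became 22 and 24, a change of 2.68 ± 0.445 (adjusted p = 0.00363, limma). LZIC (chr6:70255794-70256565) went from 13 and 22 to 40 and 32 (2.59 ± 0.402, adjusted p = 0.00265, limma). The other 5, near RASSF7, PPP1R3C, RSL24D1, MIER2 and AATF, had score gains between 2.62 and 3.01. PPP1R3C encodes a glycogen-targeting subunit of protein phosphatase 1. In 7 of the 8, MIER2 being the exception with 32 and 51 against 46 and 48, both unscaled 60 h pileups lay above both 0 h pileups.

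The largest loss was near JDP2, a repressor that pairs with AP-1 proteins and limits their activity (chr7:98568614-98569468). Pileups there were 62 and 55 at 0 h and 10 and 8 at 60 h. Percentiles fell from 81.2 and 64.7 to 1.57 and 0.411, a score change of -3.03 ± 0.388 (adjusted p = 0.000984, limma). A region in COL25A1, a transmembrane collagen of motor innervation (chr8:113292498-113293514), went from 52 and 61 to 10 and 8 (-3.02 ± 0.381, adjusted p = 0.000984, limma). INSIG1, which retains the sterol sensor complex in the endoplasmic reticulum, had a region 45596 bp away that went from 28 and 37 to 9 and 7. That call ended without either 0 h library (adjusted p up to 0.113), and the call near ZNF182 ended without WT 0 h library 2 (adjusted p = 0.0532). The others lay near BEND4, PXDC1, VMA21 and LYPD6B. At 60 h the regions of JDP2, COL25A1 and ZNF182 had the same pileups, 10 and 8, and tied percentiles of 1.57 and 0.411. These values are near the lowest that were called, so the size of such losses is bounded by the calling limit. All 16 regions with the largest gains and losses passed the pileup ranking as well.

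**Figure D3:**
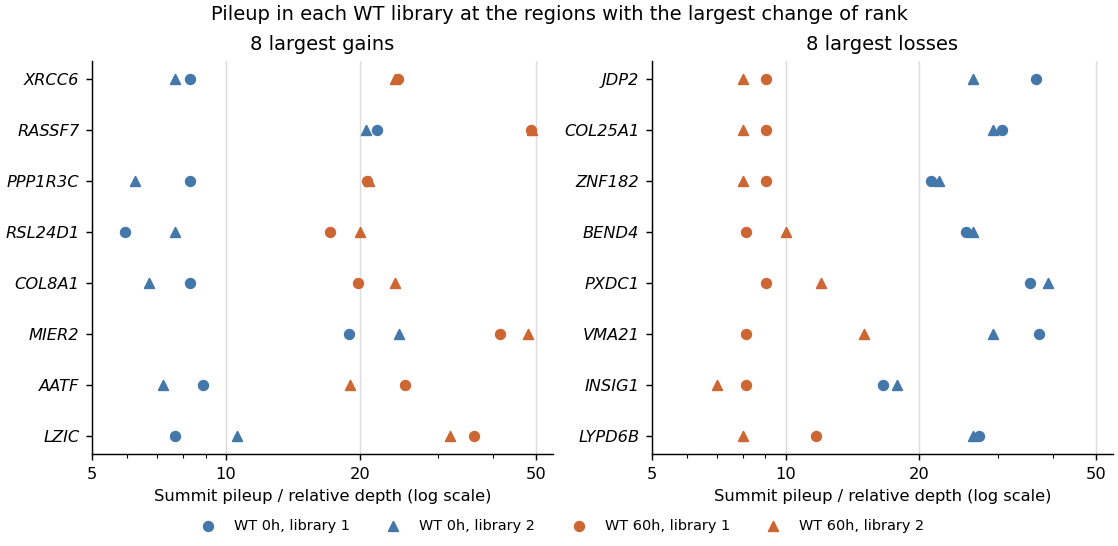
Summit pileup divided by relative depth (horizontal, log scale) in each of the 4 WT libraries at the 8 regions with the largest gain and the 8 with the largest loss of rank, labelled by the linked gene. The 60 h symbols lie to the right of the 0 h symbols in every row of the left panel and to the left of them in every row of the right panel.

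Losses were rare at gene ends. Of 13172 tested regions within 1 kb of a gene end, where promoters lie, 962 (7.30%) were higher and 161 (1.22%) lower. Inside genes 973 of 26249 were higher and 1674 lower, and between genes 919 of 22940 were higher and 1485 lower. By both rankings the gene-end regions gave 495 higher (3.76%) and 106 lower (0.805%), those inside genes 773 (2.94%) and 1335 (5.09%), and those between genes 822 (3.58%) and 1135 (4.95%). The share of gains at gene ends was thus close to that between genes once pileup was required. Of the higher regions 33.7% touched a gene end by −log10 p and 23.7% by both rankings, against 21.1% of all tested. Of the lower regions it was 4.85% and 4.11%. By −log10 p, lower regions lay at a median of 40260 bp from the nearest gene end and higher regions at 9896 bp, against 17848 bp for all tested. Regions opened or closed outright were distal in both directions, with 7.07% and 4.41% at gene ends against 14.3% of all regions at equal numbers. The share of all peak summits at gene ends was 14.8% and 14.9% at 0 h and 15.6% and 15.8% at 60 h with equal peak numbers, a difference of 0.848 percentage points in which the groups did not overlap.

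The gene lists were read against all regions linked to a protein-coding gene, of which 2142 (4.84%) were higher and 1846 (4.17%) lower by −log10 p, 1426 (3.23%) and 1443 (3.26%) by both rankings, and 499 (1.13%) and 302 (0.683%) also without each library in turn. At equal peak numbers 4.19% of the linked regions opened and 6.32% closed, and with the peaks as deposited 0.673% and 17.0%. The list of fibroblast and extracellular matrix genes had the largest difference in number between higher and lower regions of the 19 lists, though not in share of regions, where the inflammation and endothelial lists exceeded it by both rankings and the housekeeping list by −log10 p. It holds collagens, their modifying enzymes and the proteases that remodel them. Of its 248 tested regions 23 were higher and 3 lower, and 18 (7.26%) and 2 (0.806%) by both rankings. Higher regions stayed more numerous than lower ones in all 10 alternatives, the difference running from 5 to 26. Its opened regions, 40 of 401 at equal numbers against 14 closed, did not share this stability: the net turned to -2 with peaks ranked by pileup and to -8 when peaks had to cover 50% of a region. With the peaks as deposited the list had 14 opened and 64 closed regions.

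TIMP3, an inhibitor of metalloproteinases bound to the matrix, had 3 higher regions inside the gene. At chr5:12277058-12278044 the pileups were 48 and 51 at 0 h and 64 and 63 at 60 h, so the shallower libraries were the higher ones. The percentile rose there from 48.0 and 45.6 to 89.4 and 91.0, a score change of 1.38 ± 0.188 (adjusted p = 0.00138, limma). TNC, the matrix glycoprotein tenascin-C, also had 3. At chr1:255550660-255551332 its percentiles were 20.8 and 28.1 at 0 h and 77.5 and 81.9 at 60 h (1.53 ± 0.233, adjusted p = 0.00247, limma). The TNC region nearest the gene end, at chr1:255531378-255532500, changed by 0.80 by −log10 p but by -0.04 by pileup.

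An end of COL6A3, a chain of the microfibrillar type VI collagen (chr15:137102335-137103808), rose from percentiles 16.0 and 11.0 to 66.0 and 55.6 (1.39 ± 0.302, adjusted p = 0.0119, limma). COL5A1, of the type V collagen that nucleates fibrils, rose 15490 bp away at chr1:273918124-273918729 from 6.14 and 14.8 to 61.8 and 59.7. POSTN, the matricellular protein periostin, rose at chr11:13190759-13191421 from 27.7 and 13.8 to 66.7 and 74.3. These regions, with 1 further TIMP3 region, are the 6 of the list that passed both rankings and stood without each library in turn. The other gains included ends of COL1A2, MMP2, MMP14 and TWIST1, regions of MMP2, ELN and LOXL2 and a distal region of COL3A1. Each of their calls ended without at least 1 library, with WT 0 h library 1 or 2 always among them (adjusted p up to 0.19 for COL1A2, 0.0999 and 0.186 for MMP2, 0.094 for MMP14, 0.0501 for TWIST1 and 0.196 for COL3A1). The 2 losses by both rankings lay in PRRX1, a mesenchymal homeobox factor, and 35725 bp from THBS1, and both ended without a 0 h library. The remaining loss lay 18687 bp from COL6A3 at chr15:137122374-137123779, where pileups fell from 76 and 82 to 32 and 30. It passed by −log10 p (-0.72 ± 0.189, adjusted p = 0.0269, limma) but not by pileup (adjusted p = 0.0728, limma). An end of COL5A1 was higher too, a call that ended without WT 60 h library 2 (adjusted p = 0.563). Of the 6 fibroblast markers THY1, LUM and TCF21 had a gene-end peak in all 4 libraries, DPT only at 60 h and DCN only at 0 h. Endothelial markers had 7 opened (13.2%) and 2 closed of 53 regions at equal numbers, but 0 opened and 19 closed of 88 with the peaks as deposited. The part of other cells in the result of the matrix list was not tested.

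Adipogenic genes showed 10 higher and 4 lower of 82 tested regions, and 8 (9.76%) and 4 (4.88%) by both rankings. The higher regions belonged to FASN, SCD, SREBF1 and PLIN1, of lipid synthesis and storage, and to the transcription factors CEBPB, CEBPD, EBF2 and PRDM16. FASN, the fatty acid synthase, rose at its end (chr12:919385-921667) from percentiles 69.2 and 73.4 to 95.4 and 93.4 (1.03 ± 0.183, adjusted p = 0.00469, limma) and at a region 7956 bp away from 17.6 and 30.8 to 80.2 and 58.6. An end of CEBPD, an early adipogenic factor that also responds to cytokines, rose from 70.4 and 55.2 to 88.5 and 91.0. PRDM16, a regulator of brown fat fate, rose at chr6:64705531-64706168 from 1.18 and 2.46 to 34.0 and 62.2. The losses were at CD36, a fatty acid transporter, with 2 regions, and at CEBPA and PPARG, the factors that drive fat cell differentiation. The CEBPA region fell from pileups of 59 and 72 to 19 and 14, and the PPARG region from 62 and 58 to 19 and 15. All 4 losses ended without WT 0 h library 1 (adjusted p up to 0.338), whereas the 4 gains named here stood without each library. Peaks lay at the gene end of 1 or 2 of 4 adipocyte markers in each library, FABP4 and ADIPOQ having none, and the part of adipocytes was not tested.

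Genes of inflammation and NF-kB signalling gave 10 higher (9.90%) and 3 lower regions (2.97%) of 101, all of them by both rankings, although ranking by fold turned the difference to -1. SOCS3, the feedback inhibitor of cytokine receptors, rose at its end (chr12:3642790-3644935) from percentiles 20.7 and 34.1 to 69.2 and 83.3 (1.35 ± 0.253, adjusted p = 0.00616, limma) and again 2143 bp away. IL1R1, the receptor of interleukin-1, rose at 2 regions inside the gene. The stronger change, at chr3:52332353-52333092, was from 3.40 and 9.15 to 63.5 and 58.5 (1.86 ± 0.343, adjusted p = 0.00565, limma). A region 17740 bp from CCL2, a monocyte chemokine, had pileups of 23 and 32 at 0 h and 40 and 29 at 60 h and rose in percentile from 9.45 and 17.1 to 68.8 and 56.9. CCL20, a lymphocyte chemokine, went the other way at both of its end regions. At chr15:129176611-129177747 its pileups fell from 130 and 128 to 46 and 36 (-1.09 ± 0.189, adjusted p = 0.00422, limma), but ranked by fold this region hardly changed (adjusted p = 0.984). A region near IL1B fell too, from percentiles 97.0 and 94.7 to 84.1 and 85.9. Its unscaled pileups were 141 and 141 at 0 h and 71 and 62 at 60 h. The call ended without WT 0 h library 1 or WT 60 h library 1. IL6 gained 3 regions at equal numbers, 2 of them with no 0 h peak. Of the 8 immune markers 4 or 5 had a gene-end peak in each library, and the part of immune cells was not tested.

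In the satellite cell and quiescence list losses outnumbered gains, though the difference was 0 by fold. None of its 74 tested regions was higher and 3 (4.05%) were lower, a share near the 4.17% of all linked regions. At equal numbers 16 of 141 regions closed (11.3%) and 8 opened (5.67%), next to the 6.32% and 4.19% of all linked regions. A region 40193 bp from PAX3, the paralogue of PAX7 that marks muscle progenitors (chr15:124052203-124053610), had pileups of 86 and 94 at 0 h and 38 and 29 at 60 h. Its percentile fell from 94.5 and 93.5 to 78.9 and 71.0 (-0.88 ± 0.185, adjusted p = 0.00992, limma), and the call stood by pileup and without each library but not by fold (adjusted p = 0.169). Regions of ITGA7, the laminin-binding integrin subunit of muscle, and TEK, the TIE2 receptor, fell as well, both calls standing by pileup and ending without WT 0 h library 1 (adjusted p up to 0.268 and 0.0976). MET, the receptor of hepatocyte growth factor that activates satellite cells, lost 5 regions of 16 and gained 1. The 5 had 0 h pileups between 20 and 43 and no 60 h peak.

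PAX7 itself kept a peak at its gene end in all 4 libraries but had fewer regions, 18 and 20 in or near the gene at 0 h and 8 and 10 at 60 h. The 0 h libraries also held more peaks in all, 127394 and 134181 against 86282 and 82696. The part of depth in the fall at PAX7 was not tested. At equal numbers 3 of its 18 regions closed and 1 opened, and with the peaks as deposited 9 closed and none opened. The strongest closed one, inside the gene at chr6:77169420-77169870, had pileups of 92 and 111 at 0 h and no 60 h peak. The net of -2 at PAX7 turned to 1 without WT 60 h library 1 and with peaks ranked by fold. MYOD1 and MYF5 had no opened or closed region at equal numbers, and MYF6 had 1 closed. None of the regions of PAX7, MYF5, MYOD1, MYOG or MYF6 that all 4 libraries shared passed the rank test.

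Among the genes of the Notch pathway, 14 of 127 regions closed (11.0%) and 1 opened at equal numbers, a net that ranged from -21 to -1 over 7 alternatives and was 5 with peaks ranked by fold. RBPJ, the DNA-binding effector of Notch, lost 4 regions and JAG1, a ligand, lost 3. The RBPJ regions had 0 h pileups between 22 and 60, and the JAG1 regions between 25 and 72, the highest at chr17:19622577-19623293, with no 60 h peak in any of the 7. The rank test gave 5 higher and 2 lower of 84 regions, and 3 and 2 by both rankings, a difference that was -1 by pileup and by fold and -2 without WT 60 h library 2. HES1, a classical Notch target, rose 3217 bp from the gene at chr13:131141082-131141902, from percentiles 15.4 and 24.8 to 67.8 and 65.9 (1.29 ± 0.27, adjusted p = 0.0101, limma). Another region near RBPJ, at chr8:19892284-19893289, rose from 19.4 and 35.5 to 83.7 and 61.0. Both gains stood by pileup and without each library, so closed and strengthened regions occurred side by side at RBPJ.

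Sarcomere genes, which encode the contractile apparatus of fibres, had calls near the background in both directions. Of 112 tested regions 4 (3.57%) were higher and 6 (5.36%) lower, and 13 opened and 11 closed of 196 at equal numbers, where ranking by pileup turned the net to -12. TTN, the giant spring protein of the sarcomere, gained 2 regions at chr15:84481572-84481898 and chr15:84482168-84482664, which lie close together inside the gene. Their pileups were 22 and 20 and then 26 and 22 at 60 h, and neither had a peak at 0 h. This gain of TTN stood in all 8 alternatives. The rank gains lay at gene ends or inside genes, at TNNC1, TNNC2, TNNI1 and MYOM3, of which TNNC2 was lost by pileup. An end of TNNC1, the slow and cardiac troponin C, went from percentiles 6.44 and 4.21 to 31.4 and 47.0. The 6 losses were near MYH2, MYH7, MYL1, MYL4, TPM1 and MYBPC1, and 5 of them lay between genes. The MYH7 region (chr7:75643092-75644345), 6496 bp from the slow myosin gene, had pileups of 79 and 107 at 0 h and 30 and 28 at 60 h. Every one of the 10 calls ended without WT 0 h library 1 or 2 (adjusted p up to 0.413 for MYH7 and 0.0601 for MYH2).

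The myogenic regulators were also near the background, with 6 higher (4.69%) and 5 lower (3.91%) of 128 regions, and 2 and 5 by both rankings. The loss that stood without each library was inside TCF3, which encodes the E proteins that pair with MYOD1 (chr2:76874497-76875781). Pileups there fell from 76 and 75 to 18 and 22 and percentiles from 84.8 and 77.9 to 27.3 and 54.7 (-1.14 ± 0.243, adjusted p = 0.0108, limma). Distal regions of TCF12, RUNX1 and MEF2C also fell, each call ending without WT 0 h library 1 or 2. The MEF2C region had pileups of 67 and 72 at 0 h and 22 and 20 at 60 h. The 2 gains by both rankings were an end of TEAD1 and a region inside TEAD4, factors of the Hippo pathway that bind muscle promoters, and both ended without WT 0 h library 1 (adjusted p = 0.114 and 0.168 at the largest). At equal numbers TEAD1 had 2 closed regions and none opened. MYOG, the factor of terminal differentiation, gained 1 region 3824 bp away at chr9:113789136-113789492, which had pileups of 31 and 26 at 60 h and of 33 and 41 in the deeper 0 h libraries.

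Genes of fusion and adhesion had 5 higher (4.10%) and 6 lower (4.92%) of 122 regions, and 5 and 5 by both rankings. These shares were near the 4.84% and 4.17% of all linked regions. At equal numbers MYMK, the fusogen myomaker, gained 2 regions at its ends and lost 1 at chr1:273098029-273099161, where the 0 h pileups were 60 and 64. With the peaks as deposited MYMK had 0 opened regions and 1 closed. Its net of 1 at equal numbers ran from -1 to 4 in the 8 alternatives. A region inside MUSK, the agrin receptor of the neuromuscular synapse, fell from pileups of 63 and 63 to 19 and 16 (-1.25 ± 0.216, adjusted p = 0.00411, limma). One inside TMEM182, a muscle membrane protein, rose from percentiles 35.1 and 29.0 to 74.8 and 74.0 (1.12 ± 0.227, adjusted p = 0.00841, limma). Both of these calls stood by pileup and without each library. In the list of calcium handling and metabolism 1 region (1.47%) was higher and 2 (2.94%) were lower of 68, shares below those of all linked regions. CASQ2, a calcium store protein, lost 3 of 13 regions at equal numbers.

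Signalling through SMAD proteins gave a mixed picture with 14 higher and 7 lower of 181 regions, and 9 and 4 by both rankings. Ranking by fold turned the difference to -2. Ends of the receptors ACVR1 and BMPR2 and of SMAD3 and SMAD7 rose and stood by pileup and without each library. At ACVR1 (chr15:64890312-64892919) the percentiles were 62.1 and 73.0 at 0 h and 94.8 and 92.7 at 60 h (1.08 ± 0.188, adjusted p = 0.00442, limma). SMAD7, an inhibitor of the pathway, went from 21.4 and 20.2 to 64.8 and 79.6, while 3 other regions near it closed. SMAD6, the inhibitor of BMP signalling, fell at a region 29769 bp away (chr1:164764853-164766562) from pileups of 86 and 92 to 22 and 25 (-1.21 ± 0.223, adjusted p = 0.00555, limma).

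Growth factor receptor genes had 12 higher and 5 lower of 137 regions, 8 and 4 by both rankings, and the difference was -1 by fold. None of the 12 or the 5 calls stood both by pileup and without each library in turn. IGFBP2, which binds insulin-like growth factors, had 3 higher regions, all between 8814 and 18857 bp from the gene. At the one with the largest change, chr15:118810258-118810729, pileups were 28 and 30 at 0 h and 39 and 30 at 60 h. Each call at IGFBP2 ended without a 0 h library (adjusted p up to 0.0593, 0.0647 and 0.133). Wnt pathway genes had 10 higher and 5 lower of 142 regions, and 5 and 4 by both rankings, though the difference was -4 without WT 60 h library 1. WNT10A, a ligand that restrains adipogenesis, rose at chr15:120941754-120942632 from percentiles 6.38 and 3.36 to 55.6 and 63.4 (1.92 ± 0.348, adjusted p = 0.00534, limma).

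The immediate early genes and partners of AP-1 gave 12 higher and 6 lower of 152 regions but 5 and 5 by both rankings, and the difference was -1 by pileup and -2 by fold. The losses that stood lay away from gene ends. A region inside ATF3 fell from percentiles 96.5 and 97.9 to 80.9 and 78.9 (-1.08 ± 0.189, adjusted p = 0.00439, limma). Its unscaled pileups were 97 and 113 against 48 and 39. One 15731 bp from IER3 fell from percentiles 97.5 and 97.1 to 80.1 and 81.5 (-1.06 ± 0.185, adjusted p = 0.00438, limma). Unscaled pileups there were 120 and 134 against 53 and 52. Gene ends of EGR2 and DUSP5 rose, from percentiles 89.7 and 89.6 to 98.1 and 98.9 and from 70.5 and 77.2 to 93.1 and 94.0. These 4 calls stood by pileup and without each library.

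Cell cycle genes had 6 higher and 4 lower of 81 regions, and 2 and 3 by both rankings, the difference being -1 by pileup and -5 without WT 60 h library 1. CCNE1, the cyclin of S phase entry, rose at its end (chr6:39918785-39920230) from percentiles 40.4 and 27.0 to 87.1 and 77.2 (1.37 ± 0.229, adjusted p = 0.00368, limma). A region of CCND1, the G1 cyclin, was higher by −log10 p (1.03 ± 0.299, adjusted p = 0.0388, limma) but not by pileup (adjusted p = 0.817), and its call ended without WT 0 h library 1 (adjusted p = 0.231). Acetyltransferase and bromodomain genes gave 3 higher (2.97%) and 2 lower (1.98%) of 101, shares below the 4.84% and 4.17% of all linked regions. The losses were inside the coactivator NCOA2 and the remodeler SMARCA2, whose region fell from pileups of 64 and 67 to 22 and 12. CREBBP lost 1 region of 9 and EP300 had neither an opened nor a closed one of 4.

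Housekeeping genes gave 7 higher and no lower of 38 regions by −log10 p, yet none of the 7 passed by pileup. The lists of other cell types were small. At equal peak numbers the net of opened regions of the endothelial markers stayed between 2 and 8 in all 8 alternatives. With the peaks as deposited these markers had 0 opened and 19 closed of 88 regions. In the rank test they had 3 higher and 3 lower of 29 regions. The higher ones were all at ERG, an ETS factor, whose end (chr13:202301147-202303154) rose from percentiles 10.0 and 18.7 to 59.9 and 74.9 (1.55 ± 0.297, adjusted p = 0.00675, limma). The regions near CDH5, EMCN and TEK were lower in calls that each ended without a library. Immune markers had no called region of 18 and neural markers 1 higher of 23.

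**Figure D4:**
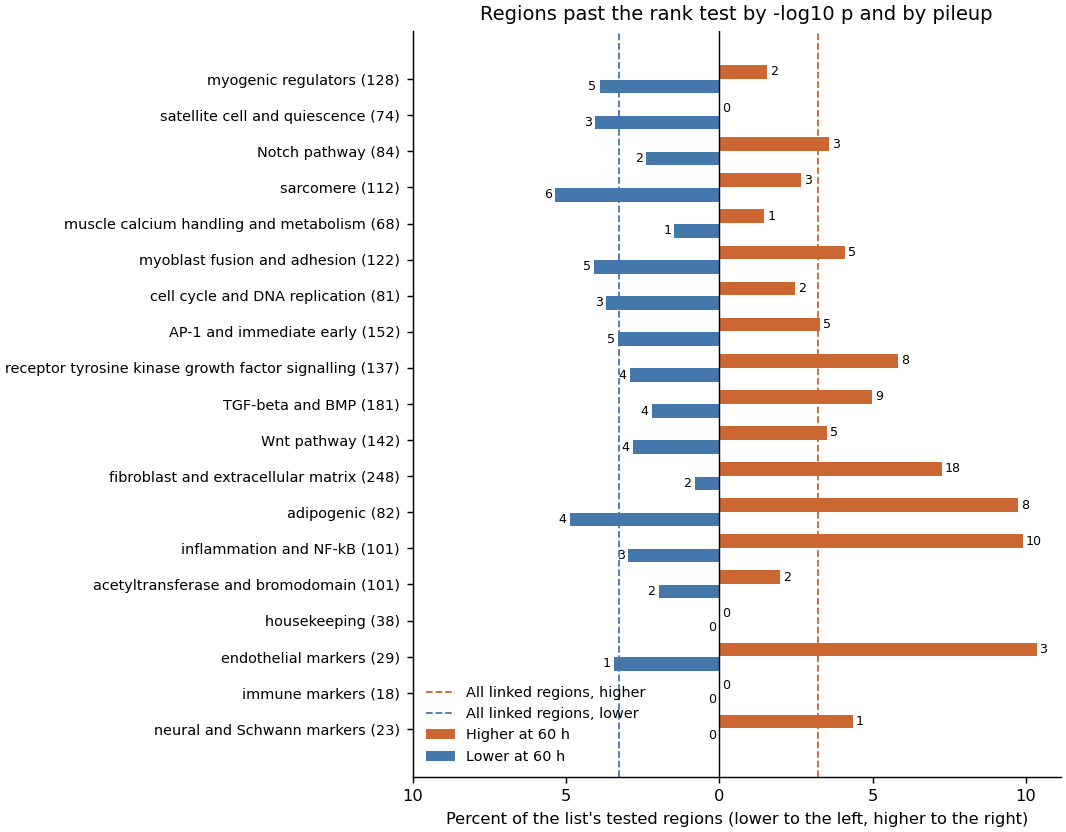
Percent of each list's tested regions (number in brackets) that were higher (right) or lower (left) at 60 h by both −log10 p and pileup, with the number of regions at each bar and dashed lines at the 3.23% and 3.26% of all linked regions. The matrix list reaches 7.26% higher with 0.806% lower, and the housekeeping list has none in either direction.

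The CBP-labelled libraries, which took no part in the WT calls, were read at the same places. Their 0 h libraries were deeper too, with relative depths of 1.98 and 1.43 against 1.21 and 1.08 at 60 h. The part of depth in changes shared by both labels was not tested. The rank comparison kept only regions with a peak in every CBP library. Of the 8 largest gains it left out XRCC6, which had no CBP peak. LZIC, also left out, had pileups of 18 and 15 at CBP 0 h and no CBP 60 h peak. PPP1R3C, with a peak only in CBP 0 h library 1, RASSF7 and AATF were left out too. COL8A1, with pileups of 17 and 18 at CBP 0 h and 37 and 43 at CBP 60 h, RSL24D1 and MIER2 had a peak in every CBP library. Of 2392 higher regions called in all 8 libraries, 1968 (82.3%) also had both CBP 60 h libraries above both CBP 0 h libraries, against 32.5% of the 50705 regions called in all 8. Of 2451 lower regions, 1969 (80.3%) had both CBP 60 h libraries below, against 28.4%. Median percentiles of the higher regions were 31.5 and 32.7 in the CBP 0 h libraries and 63.9 and 63.2 in the CBP 60 h libraries. Among the matrix genes, 19 of the 22 higher regions shared by all 8 libraries moved the same way, but the TNC region at chr1:255550660-255551332 did not, with CBP percentiles of 7.14 and 13.3 at 0 h and 16.2 and 13.1 at 60 h. The region in ERG at chr13:202043199-202044214 rose in WT from 62.5 and 50.9 to 91.5 and 89.5 and had CBP values of 30.6 and 57.0 and then 33.4 and 52.9.

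Regions that opened in WT at equal numbers had a peak in 18.9% and 17.1% of cases in the CBP 0 h libraries and in 55.1% and 54.7% in the CBP 60 h libraries. In all, 1355 (27.6%) opened in both comparisons, against 4.38% of all regions in CBP. Of the closed regions, 2599 (33.3%) closed in CBP too, against 8.79% of all. The 2 TTN regions, which had no 0 h peak in WT or CBP libraries, had a CBP 60 h peak in 1 library at the first, with a pileup of 13, and in none at the second. At the strongest opened region near CXCL12, CBP pileups were 25 and 19 at 0 h and 26 and 21 at 60 h. Near ETS1 they were 23 and 14 and then 38 and 37, the same direction as in WT. The opened region in CCDC148 had no peak in any CBP library.

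**Figure D5:**
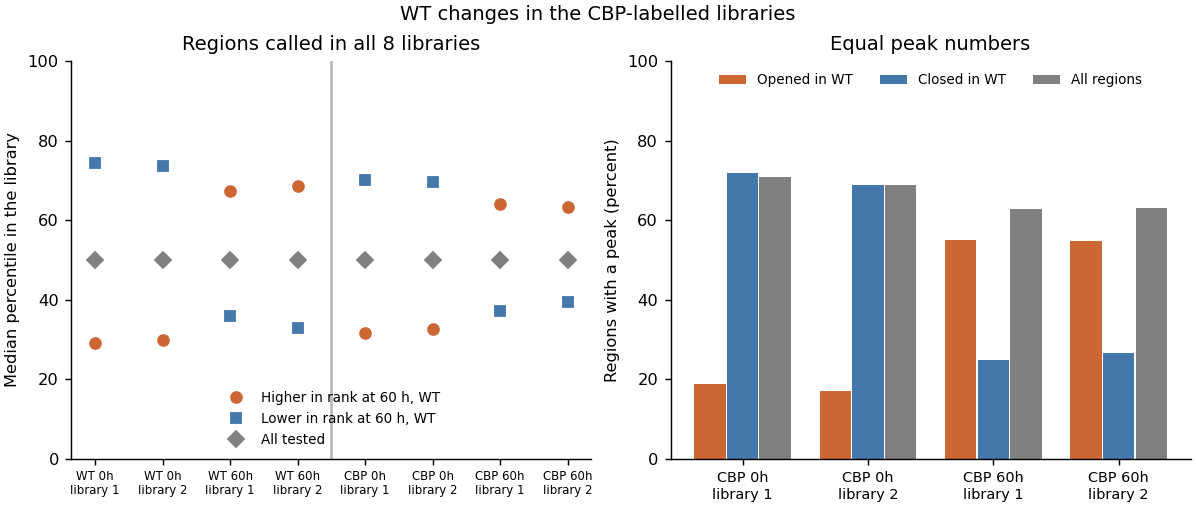
Left, median percentile of the regions higher or lower at 60 h in WT, and of all tested regions, in each of the 8 libraries, over regions called in all of them. Right, percent of the regions opened or closed in WT, and of all regions, with a peak in each CBP-labelled library at equal peak numbers: the opened regions go from 18.9% and 17.1% at 0 h to 55.1% and 54.7% at 60 h.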

How the data were processed

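The authors deposited 1 narrowPeak list per library, without pooling. Trimmomatic trimming and MACS2 2.1.0 calling on Sscrofa11.1 are given per the submitters' processing notes. The aligner, duplicate removal and any read shift, which bear on peak heights and edges, are not given in the sources used. From the caller, the authors' lists carry the fold ratio of each summit to local background, its −log10 p and its −log10 q. The deposited score column was not used. Read totals were not used: depth is relative, from the most frequent background value, and pileups were recovered from fold and −log10 p under the MACS2 formulas (100% whole at a tolerance of 0.01 in −log10 p).

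Ranks were tested with limma 3.58.1 (R 4.3.3, eBayes with trend) after a check on simulated data. Genes came from the RefSeq table for Sscrofa11.1, which gives no strand, so either gene end stands for the planned gene start, and regions were linked within 50 kb to 19484 protein-coding genes. Of 473 entries in 19 gene lists, 453 matched. The gene lists, members and tests were chosen with earlier results of these data known. Named genes are the 6 with most net closed and opened regions, the 8 largest rank changes each way, the 5 strongest opened and closed regions, up to 4 per list by net calls and a fixed panel. Other list genes, including those whose calls stood in every leave-one-out fit, were named after their values were seen.

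Alternatives covered the q threshold, the overlap, the ranking value, depth, the replicate block and leaving out each library. No sequence was read. A few genes of the lists enter the counts but are not reported here by name.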

Additional observations from a re-analysis of the deposited data

Results flagged for a closer look

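A few regions went opposite ways in the 2 sets of libraries. Of 2392 regions higher in WT and called in all 8 libraries, 48 (2.01%) had both CBP 60 h libraries below both at 0 h. Over all 50705 regions called in all 8 libraries the share was 28.4%. Of the 2451 regions lower in WT, 70 (2.86%) had both CBP 60 h libraries above, against 32.5% over all regions. These regions were singled out because every library of one label moved one way and every library of the other the opposite way, and the difference between WT and CBP was not tested.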

How the results depend on the processing

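Depth limits these counts: a 0 h peak can lie under the 60 h detection limit. With the peaks as deposited, opened regions fell to 648 at a −log10 q of at least 5 and ran from 1812 to 4702 when single libraries were left out, and closed regions from 35105 to 48487. At equal peak numbers closed regions rose to 16697 when peaks had to cover 50% of a region and ran from 12427 to 13012 without single libraries, and opened regions were 7925 by fold and 6816 to 12481 without single libraries. Higher and lower regions numbered 1704 and 1996 with 50% cover and 1079 and 2088 by fold. Without single libraries they ran from 1693 to 4701 and from 1488 to 6351. With the replicate block they were 4714 and 5406. Same-numbered libraries did not deviate together over the regions (correlation 0.0273), which cannot settle whether the numbers pair the samples. No block could be fitted to the counts of opened and closed regions, which have no test. The gene-end share difference of 0.848 points was 4.12 as deposited, 0.981 within 5 kb and 2.50 by fold. Net regions turned by pileup at FRMD8 (-3), BAHCC1 (-2), FOS (-1), AXIN2 (1) and TNC (-4), by fold at PAX7 (1), FGFR1 (1) and SMAD7 (2), at the stricter q at CHRDL2 (-1), FZD2 (-1), AXIN2 (1) and PLOD2 (-1), with 50% cover at LEP (-1), and without WT 60 h library 1 at PAX7 (1) or library 2 at DUSP6 (1). Net regions of lists turned by fold for Notch (5), receptor tyrosine kinase (14) and TGF-beta (29, and from -17 without WT 0 h library 1 to 17 without WT 60 h library 2), with 50% cover for AP-1 (-2), matrix (-8) and adipogenic genes (-8), and by pileup for the same 3 (-5, -2 and -5). Among lists with a net of at least 5, net rank calls turned by fold for AP-1 (-2), receptor tyrosine kinase (-1), TGF-beta (-2) and inflammation (-1), by pileup for AP-1 (-1), and without single libraries for Wnt (from -4 to 8). Single regions turned by fold at ID2 (0.0373) and IL1B (0.0628), and by pileup at TNC (-0.0387), FOSL1 (-0.242), IRS1 (-0.0228), RPS18 (-0.031) and TNNC2 (-0.107). The cause of these changes was not tested. Motif shares, planned earlier, were not run.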
